A study of Mus musculus with 9 samples.

Results

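Oas1a, Oas2, Oas3, Oasl1, Oasl2, Ifit1, Ifit2, Ifit3, Mx1 and Rsad2 are antiviral effector genes that interferons switch on. Their expression was followed in mouse lung endothelial cells (ECs). The genes were taken by symbol through the annotation of the array platform, and all 10 were found among the 18193 genes that a probe set named. A probe set is a group of short probes against the 3-prime part of a transcript, and a gene with several probe sets was read from the one with the highest mean over the 9 arrays. Of these genes, 9 had a single probe set, and Rsad2 had 3.

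The study asked how ECs change when breast cancer cells colonise the lung, and how far the changes depend on signalling by VEGF receptor 2 (VEGFR2). NSG mice, which lack B, T and NK cells, aged 6 to 8 weeks received cells of MDA-MB-231-LM2, a human breast cancer line selected for spread to the lung, through the tail vein. Cells positive for CD31 and without CD45, CD11b, EpCAM, CD140a/b or GFP, which the cancer cells carried, were sorted from whole lungs, and their RNA was amplified and hybridised. The study's methods say that mice with a similar metastatic load were chosen for this experiment. The metastatic DC101 group (3 arrays) received the rat antibody DC101, which blocks VEGFR2, at 40 mg/kg on days 21 and 24 after injection. The metastatic IgG group (3 arrays) carried the same cancer cells and received control rat IgG on the same days, and lungs of both groups were collected on day 25. The healthy IgG group (3 arrays) consisted of age-matched NSG mice without cancer cells that received rat IgG. The labels call the arrays biological replicates and do not say whether each came from a separate mouse, so p-values here measure the spread between these samples.

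Values were normalized expression on a log2 scale, where a difference of 1 is a doubling. The authors had normalized the arrays together by robust multiarray averaging (RMA), which gives each array the same distribution, so array medians lay between 8.32 and 8.33. The 16 pan-endothelial markers, a check of the sort, had a mean level of 13.46 to 13.60 in the metastatic DC101 arrays, 13.52 to 13.54 in the metastatic IgG arrays and 13.56 to 13.58 in the healthy IgG arrays. Levels of different probe sets are not comparable, since probes bind with different strength, so no gene is ranked by its level against another. In RNA from many cells, fewer cells of a type and less RNA per cell cannot be told apart.

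Cells that sense viral RNA or DNA secrete type I interferons, which bind the receptor chains Ifnar1 and Ifnar2 and activate a transcription factor complex that includes Stat2 and Irf9. This complex binds interferon-stimulated response elements (ISREs) in promoters and raises many genes at once. The OAS enzymes sense viral RNA and make short adenylate chains as a signal against viral RNA, the IFIT proteins bind viral RNA and hinder its translation, Mx1 is a GTPase that blocks viral replication, and viperin, the product of Rsad2, makes a nucleotide that stops viral polymerases. Endothelial cells express interferon receptors and respond to interferon in many organs.

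The ISRE was searched in the promoters of these genes, and the stretches that hold it are shown for 4 genes whose levels are described next. RefSeq promoters of the mouse assembly GRCm38.p6 were held for 8 of the 10 genes (Oas2 and Mx1 were not analysed here), with 2 starts for Ifit2. The core of the ISRE, GAAANNGAAA on either strand (N is any base, overlapping matches counted), was searched in the 250 bases before each start of transcription. It was present for Oas1a, Oas3, Ifit1, Ifit3 and Rsad2, 5 of 8 genes (62.5%), against 936 of 27025 genes (3.46%) over all promoters in the same window. Capitals mark the core, which reads as its reverse complement where it lies on the other strand.
Oas3: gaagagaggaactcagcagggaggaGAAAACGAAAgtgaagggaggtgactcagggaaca
Oas1a: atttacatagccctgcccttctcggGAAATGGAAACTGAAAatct
Rsad2: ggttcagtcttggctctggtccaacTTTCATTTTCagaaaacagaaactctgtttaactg
Ifit1: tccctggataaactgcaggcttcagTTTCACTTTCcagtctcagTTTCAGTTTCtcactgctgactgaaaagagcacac

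The Oas3 stretch is chr5:120777700-120777759 on the minus strand, and its core lies at positions -75 to -66, counted from the start of transcription. The listed start of Oas3 lies inside the annotated span of the gene, which reaches to position 120777684. The Oas1a stretch is chr5:120907526-120907570 on the minus strand, where 2 cores that overlap lie at -20 to -11 and -14 to -5. The annotated span of Oas1a reaches to position 120907544, so its listed start lies inside that span, and these cores do almost wholly. The Rsad2 stretch is chr12:26456538-26456597 on the minus strand, with a core at -120 to -111. The Ifit1 stretch is chr19:34640760-34640838 on the plus strand and holds a pair of cores, at -104 to -95 and -85 to -76. Ifit3 also had 2 cores, at -156 to -147 and -122 to -113 from its listed start, which lies inside the annotated span of the gene. Oasl1, Oasl2 and both starts of Ifit2 had no match in this window. Their listed starts also lie inside the annotated spans, so sequence further upstream was not fully searched. Among 26 other interferon-stimulated effector genes with a promoter, 11 had the core (42.3%), and among 10 pan-endothelial marker genes none had it (0%). The gamma-activated site, TTCNNNGAA, through which interferon gamma acts, was found for Oas1a and for 1 start of Ifit2, which is 25% of the 8 genes against 8.13% of all genes. A match describes letters and does not show that a factor binds there.

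**Figure D1:**
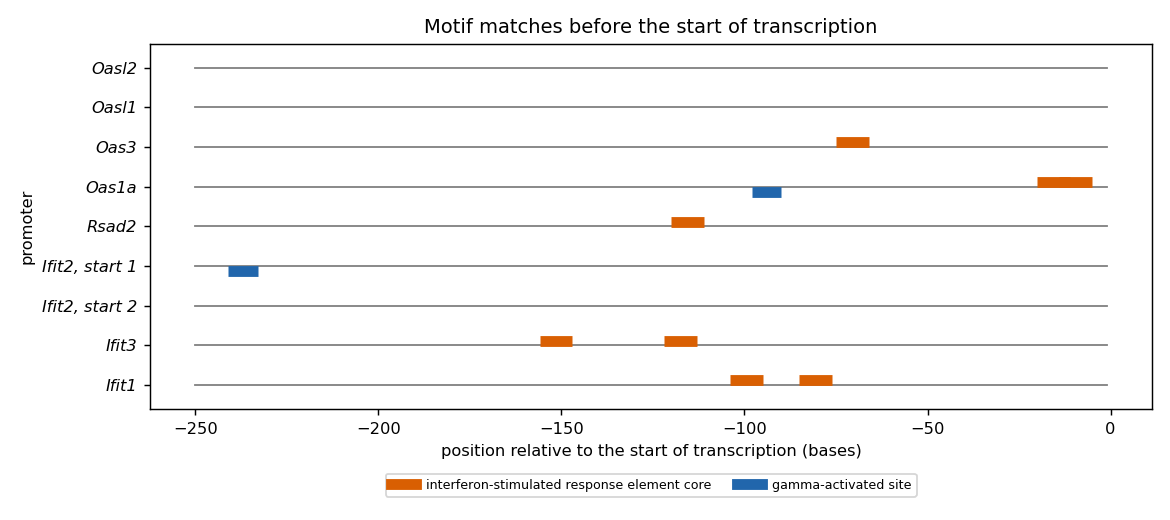
Matches of the ISRE core (orange) and the gamma-activated site (blue) in the 250 bases before the start of transcription, 1 line per promoter, with the distance from the start in bases on the horizontal axis. The cores of Oas3, Oas1a, Rsad2, Ifit3 and Ifit1 lie between -156 and -5, and Oasl1, Oasl2 and Ifit2 show none.

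In ECs of metastatic lungs under control IgG, all 10 genes were higher than in ECs of healthy lungs. The change ran over a wide range, with viperin, Mx1 and Ifit2 at the top and Oas3 at the bottom. Each gene passed the test, the moderated test of limma on the 6 arrays with Benjamini-Hochberg adjustment over all 18193 genes, and calls were made where the adjusted p was under 0.05. Of all genes tested, 3.93% were called higher in this comparison. The 3 metastatic IgG arrays lay above the 3 healthy IgG arrays for all 10 genes, which held for 13.0% of all genes. The median log2 change of the 10 was 1.82, against -0.02 over all genes.

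Rsad2 measured 12.51, 12.80 and 12.51 in the metastatic DC101 arrays, 12.68, 12.83 and 13.03 in the metastatic IgG arrays, and 9.46, 9.55 and 8.85 in the healthy IgG arrays. Every metastatic array was thus far above every healthy one, and the lowest of the 9 values was that of healthy replicate 3. In metastatic IgG lungs the gene rose by 3.56 (SE 0.20, adjusted p = 0.000393), an 11.8-fold change that ranked 8 of 18193. Its other 2 probe sets gave mean differences of 3.25 and 3.91 between the same groups. Cmpk2, a nucleotide kinase gene that is the neighbour of Rsad2 on chromosome 12, rose by 1.18 (SE 0.18, adjusted p = 0.0116).

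Mx1 measured 10.22, 10.56 and 9.96 in the metastatic DC101 arrays, 10.37, 10.54 and 10.43 in the metastatic IgG arrays, and 7.53, 7.51 and 7.24 in the healthy IgG arrays. The metastatic IgG arrays were close together, and their distance from the healthy ones was many times the spread in either group. The rise in metastatic IgG lungs was 3.02 (SE 0.11, adjusted p = 0.000146), or 8.12-fold. The reference assembly, from C57BL/6J mice, annotates Mx1 as a transcribed pseudogene, so an mRNA signal does not say that protein is made. Mx2, its paralog on chromosome 16 that has the same annotation, rose by 0.74 (SE 0.13, adjusted p = 0.0194).

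The IFIT genes lie side by side on chromosome 19. Ifit2, whose protein binds RNA in complex with other IFIT proteins, measured 11.14, 11.53 and 11.34 in the metastatic DC101 arrays, 11.77, 11.65 and 11.73 in the metastatic IgG arrays, and 8.998, 9.08 and 8.74 in the healthy IgG arrays. Ifit3, a partner that stabilises Ifit1, measured 12.77, 13.01 and 12.78 in the metastatic DC101 arrays, 12.79, 12.91 and 12.94 in the metastatic IgG arrays, and 10.96, 10.84 and 10.98 in the healthy IgG arrays. Ifit1, which binds RNA whose cap lacks methylation, measured 12.25, 12.61 and 12.22 in the metastatic DC101 arrays, 12.14, 12.44 and 12.23 in the metastatic IgG arrays, and 10.77, 10.60 and 11.05 in the healthy IgG arrays. All 3 genes separated metastatic from healthy arrays without overlap. In metastatic IgG lungs Ifit2 rose by 2.78 (SE 0.11, adjusted p = 0.000192), Ifit3 by 1.95 (SE 0.09, adjusted p = 0.000215) and Ifit1 by 1.46 (SE 0.14, adjusted p = 0.00247). These are changes of 6.86-fold, 3.87-fold and 2.75-fold. The relative Ifit1bl1, from the same cluster, rose by 2.35 (SE 0.46, adjusted p = 0.0287), and Ifit1bl2 had a log2 change of 0.05.

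Oas1a, Oas2 and Oas3 stand in 1 cluster on chromosome 5, and Oasl1 and Oasl2 are neighbours elsewhere on that chromosome. Oas2 measured 10.76, 11.07 and 10.58 in the metastatic DC101 arrays, 11.26, 11.41 and 11.39 in the metastatic IgG arrays, and 9.24, 9.35 and 8.70 in the healthy IgG arrays. Oas1a measured 11.37, 11.85 and 11.29 in the metastatic DC101 arrays, 11.72, 12.03 and 11.79 in the metastatic IgG arrays, and 10.04, 10.21 and 10.23 in the healthy IgG arrays. The 3 groups of Oas2 were fully apart, and for Oas1a the metastatic groups overlapped but neither reached the healthy one. Oas3 measured 7.58, 7.65 and 7.44 in the metastatic DC101 arrays, 7.82, 7.82 and 8.03 in the metastatic IgG arrays, and 6.91, 7.03 and 6.85 in the healthy IgG arrays. In metastatic IgG lungs Oas2 rose by 2.26 (SE 0.17, adjusted p = 0.00118), Oas1a by 1.69 (SE 0.12, adjusted p = 0.000718) and Oas3 by 0.96 (SE 0.10, adjusted p = 0.00363). Oas3 had the smallest rise of the 10, 1.94-fold.

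Oasl1, an OAS-like protein that in the mouse limits translation of Irf7 mRNA, measured 9.48, 9.63 and 9.46 in the metastatic DC101 arrays, 10.18, 9.50 and 9.85 in the metastatic IgG arrays, and 8.49, 8.11 and 8.07 in the healthy IgG arrays. Oasl2, which in the mouse keeps the enzyme activity, measured 12.08, 12.25 and 11.72 in the metastatic DC101 arrays, 12.04, 11.82 and 12.16 in the metastatic IgG arrays, and 10.80, 10.88 and 10.76 in the healthy IgG arrays. Oasl1 varied more among the metastatic IgG arrays (SD 0.34) than the other genes did. In metastatic IgG lungs Oasl1 rose by 1.63 (SE 0.20, adjusted p = 0.00552), or 3.08-fold, and Oasl2 by 1.19 (SE 0.11, adjusted p = 0.00205), or 2.29-fold. Oas1b, a member of the Oas1 cluster, rose by 0.59 (SE 0.13, adjusted p = 0.0403), while Oas1c, Oas1e, Oas1f and Oas1h were not called and had log2 changes of -0.21 to 0.02. Of 9 other genes measured, which were Cmpk2 and further genes of these families, 4 rose and none fell in metastatic IgG against healthy IgG. In metastatic DC101 against healthy IgG, 2 of them, Cmpk2 (1.16) and Mx2 (0.64), were called higher.

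**Figure D2:**
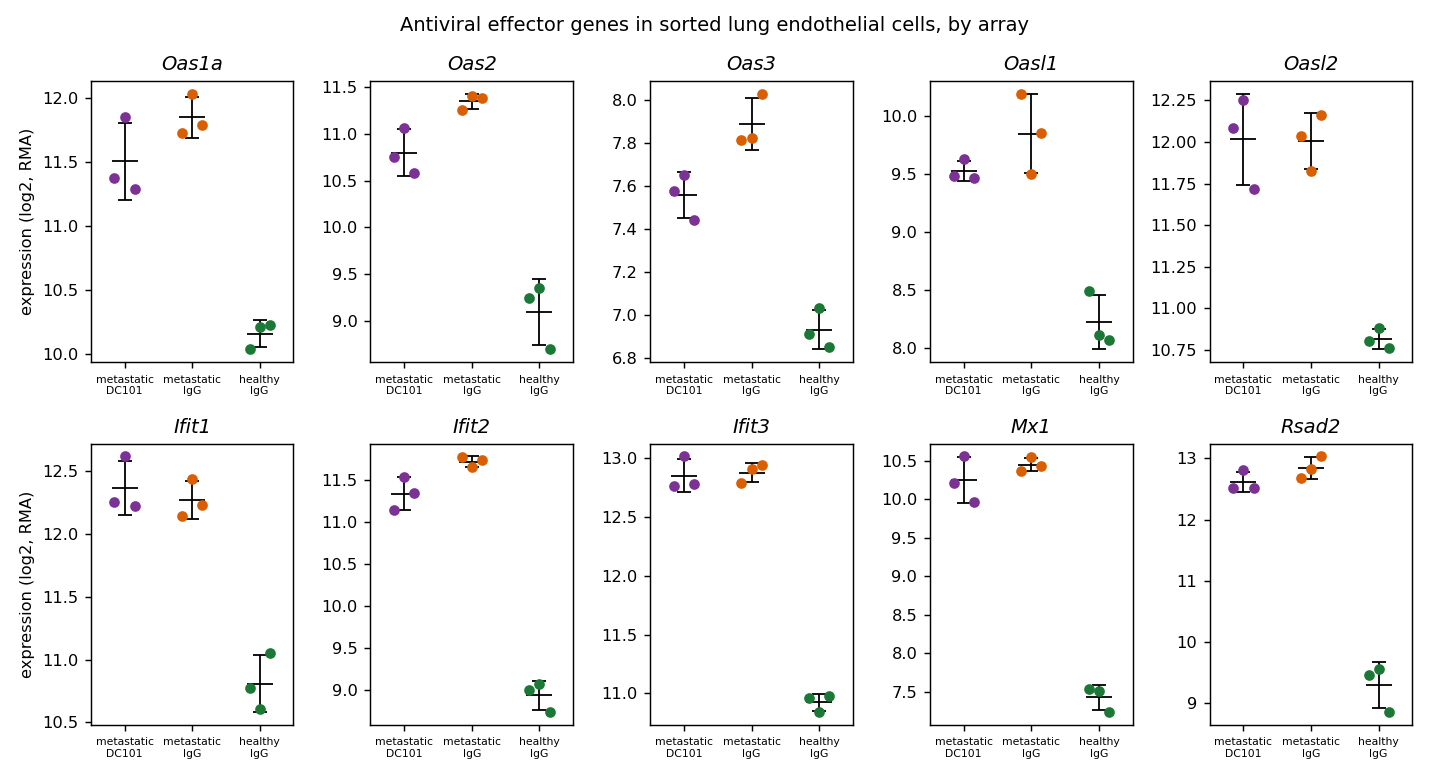
Normalized expression (log2, vertical axis, with a range of its own in each panel) of the 10 genes in ECs from metastatic lungs with DC101, metastatic lungs with control IgG and healthy lungs with control IgG. Points are single arrays (3 per group), and the bar is the mean with the SD. In each panel the 3 healthy arrays lie below all 6 metastatic arrays.

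With DC101 the 10 genes stayed above healthy lungs. All 10 were called higher in metastatic DC101 than in healthy IgG lungs, where 1.58% of all genes were called higher, and all 10 were without overlap, which 9.44% of all genes were. Their median log2 change was 1.63, against -0.04 over all genes. The calls depended on limma's moderation of the variances, which borrows the spread of other genes. Without it 1 of the 10, Ifit3, was called, and the adjusted p-values of the 10 ran from 0.0488 to 0.139. This comparison shares its healthy arrays with the one above, so it is no second test of the healthy level. Rsad2 was higher by 3.32 (SE 0.20, adjusted p = 0.000884), Mx1 by 2.82 (SE 0.17) and Ifit2 by 2.40 (SE 0.15), changes of 9.997-fold, 7.05-fold and 5.27-fold. Ifit3 was higher by 1.93 (SE 0.11), Oas2 by 1.71 (SE 0.20), Ifit1 by 1.55 (SE 0.16) and Oas1a by 1.34 (SE 0.16). Oasl1 was higher by 1.30 (SE 0.14), Oasl2 by 1.20 (SE 0.15, adjusted p = 0.0112) and Oas3 by 0.63 (SE 0.11, adjusted p = 0.0347). The call for Oas3 was the least firm. Its adjusted p was between 0.0859 and 0.131 when replicate 1 or 2 of metastatic DC101 or any 1 of the 3 healthy replicates was left out, and it was 0.0439 without metastatic DC101 replicate 3. Without healthy replicate 1, Oas1a (adjusted p = 0.0596) and Oasl2 (adjusted p = 0.0642) were not called either, which left 7 of the 10.

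Setting metastatic DC101 against metastatic IgG asks what blocking VEGFR2 did in lungs that carried metastases. None of the 10 genes was called in either direction. None of the 18193 genes was called either (0% called lower), and 1209 genes had an unadjusted p under 0.05 in limma's test. Of the 10, Oas2 had the largest difference, -0.55 (95% interval -0.89 to -0.21, adjusted p = 0.737), and its 3 metastatic DC101 arrays were all below its 3 metastatic IgG arrays. Ifit2 differed by -0.38 (interval -0.68 to -0.08, adjusted p = 0.741) and Oas3 by -0.33 (interval -0.60 to -0.06, adjusted p = 0.741), also without overlap. These 3 of the 10 had an unadjusted p under 0.05 and a lower level, which 3.94% of all genes had, and the same 3 were the ones without overlap, which 6.95% of all genes were on the lower side.

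For the other 7 genes the groups overlapped. Oas1a differed by -0.34 (interval -0.75 to 0.06), Oasl1 by -0.32 (interval -0.74 to 0.09), Rsad2 by -0.24 (interval -0.56 to 0.09) and Mx1 by -0.20 (interval -0.58 to 0.17). Ifit3 (-0.03, interval -0.30 to 0.25), Oasl2 (0.01, interval -0.38 to 0.40) and Ifit1 (0.10, interval -0.25 to 0.44) were nearest to 0. The intervals leave room for a fall of up to 0.89 for Oas2 and for a rise of up to 0.44 for Ifit1. In all, 8 of the 10 differences were below 0 and 2 above, with a median of -0.28 against -0.02 over all genes. The sign for Ifit3 turned to 0.03 when each array was centred on its own median. Both this comparison and those with healthy lungs use the same metastatic arrays, so the values stand side by side only.

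**Figure D3:**
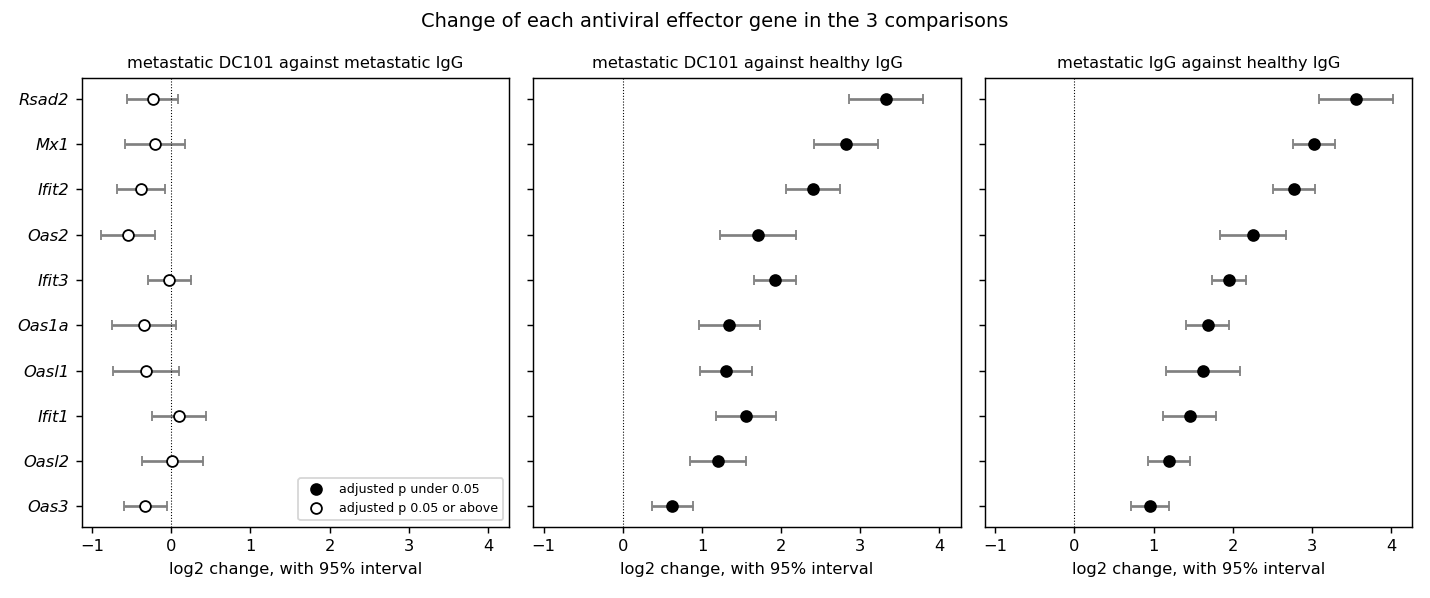
Log2 change of each gene (horizontal axis) with its 95% interval, for metastatic DC101 against metastatic IgG, metastatic DC101 against healthy IgG and metastatic IgG against healthy IgG. Filled points had an adjusted p under 0.05. All 10 genes are filled and right of 0 against healthy lungs, and in the comparison of the metastatic groups all points are open, between -0.55 and 0.10.

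Among the metastatic DC101 arrays, the 10 genes had their highest value in the same array. Replicate 2 had the highest value of its group for all 10 genes, against 39.7% of all genes, and lay on average 0.22 above the group mean of these genes. Replicate 3 had the lowest value for 7 of them and replicate 1 for the other 3, against 41.85% and 29.18% of all genes. This pattern was chosen after the values were seen. In metastatic IgG the highest value was in replicate 1 for 2 genes and in replicates 2 and 3 for 4 genes each, and the lowest was in replicate 1 for 7 genes and in replicate 2 for 3. Healthy replicate 3 was the lowest of its group for 7 genes. In the metastatic IgG and healthy IgG groups, each array was the highest for 31.89% to 35.69% of all genes. Each was the lowest for 31.41% to 34.75%. The median SD of the 10 genes was 0.207 in metastatic DC101, 0.137 in metastatic IgG and 0.169 in healthy IgG arrays, and over all genes it was 0.171, 0.139 and 0.135 in the same groups.

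Leaving out metastatic DC101 replicate 2, the highest array for every one of the 10 genes, necessarily lowers each difference from metastatic IgG lungs, and all 10 were then below 0, with a median of -0.37. Without replicate 3, 7 were below 0 and 3 above, with a median of -0.21, and without replicate 1, 8 were below 0 and 2 above, with a median of -0.23. None of the 10 was called in any of these fits. Metastatic DC101 replicate 2 also had the highest mean level of 16 macrophage and monocyte markers in its group (8.81, against 8.63 in replicate 1 and 8.33 in replicate 3) and of 13 lung epithelial markers (9.81, against 9.32 and 8.87). The part of these levels in the order of the arrays was not tested.

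**Figure D4:**
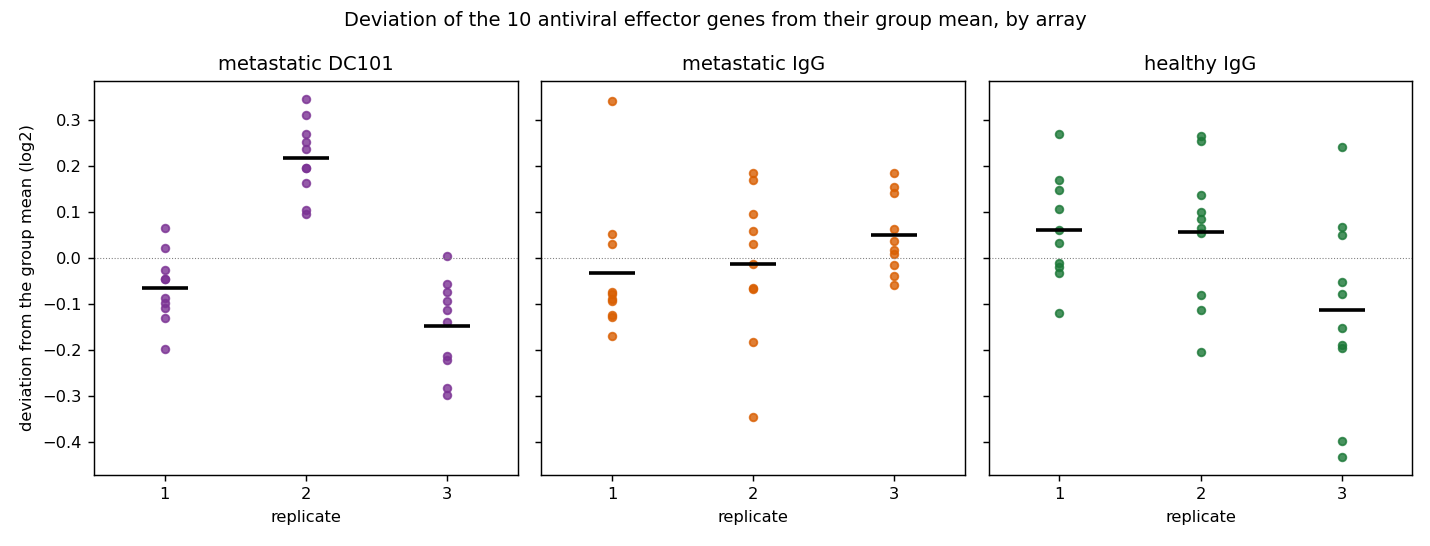
Deviation of each of the 10 genes from its group mean (log2, vertical axis) in each replicate of metastatic DC101, metastatic IgG and healthy IgG, 1 point per gene, with the mean over the genes as a black bar. In metastatic DC101 all 10 points of replicate 2 lie above 0, by 0.22 on average.

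Genes around the 10 effectors in the interferon pathway were read from lists. Of 10 interferon genes measured, which included Ifnb1 and Ifng, none was called in any comparison, and the values furthest from 0 in metastatic IgG against healthy IgG were -0.38 for Ifnab, 0.18 for Ifna5 and 0.16 for Ifnz. Most of these genes were dim, where a change is hard to see. Of 9 receptor and kinase genes none was called either, and the values furthest from 0 were 0.32 for Jak1, -0.26 for Tyk2 and 0.25 for Ifngr1. The metastatic IgG arrays lay wholly above the healthy IgG arrays for 6 of these 9 genes and wholly below for 1. Over all 18193 genes these counts were 2356 and 2667. Of 8 transcription factors, Irf7, which drives interferon genes, rose by 1.95 (SE 0.12, adjusted p = 0.000473) in metastatic IgG lungs, and Irf1, an activator of interferon-stimulated genes, fell by 0.48 (SE 0.08, adjusted p = 0.0189). Stat2 (0.34) and Irf9 (0.28), which are part of the complex that binds the ISRE, were not called. In metastatic DC101 against healthy IgG lungs the values were 1.85 for Irf7 (adjusted p = 0.000884) and -0.52 for Irf1 (adjusted p = 0.0386).

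Of 7 feedback inhibitors 1 was called, Usp18, a protease that dampens signalling at the interferon receptor, which rose by 2.07 (SE 0.09, adjusted p = 0.000215) in metastatic IgG lungs. Socs1 (-0.52) and Socs3 (0.01), inhibitors of the receptor kinases, were not called. Of 15 sensors and adaptors 4 rose in the same comparison and none fell. They were Zbp1, a sensor of left-handed nucleic acid (2.22), Eif2ak2, the RNA-activated kinase PKR (1.32), Dhx58 (0.90) and Ddx58, the sensor RIG-I (0.76). Of 33 other interferon-stimulated effectors 15 rose and none fell, with a median of 0.37. The largest rises were those of the chemokine gene Cxcl10 (2.57), Ifi27l2a (2.35), Herc6 (1.09) and Trim30a (0.89). The 10 OAS, IFIT, MX and viperin genes thus had a median change of 1.82 beside 0.37 for these effectors and -0.02 for all genes, in a list that was drawn up with results of these data known. In metastatic DC101 against healthy IgG lungs 6 of these 33 effectors, 4 of the 15 sensors and adaptors, and Usp18 (1.89) were called higher and none lower. In metastatic DC101 against metastatic IgG no gene of any of these lists was called.

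**Figure D5:**
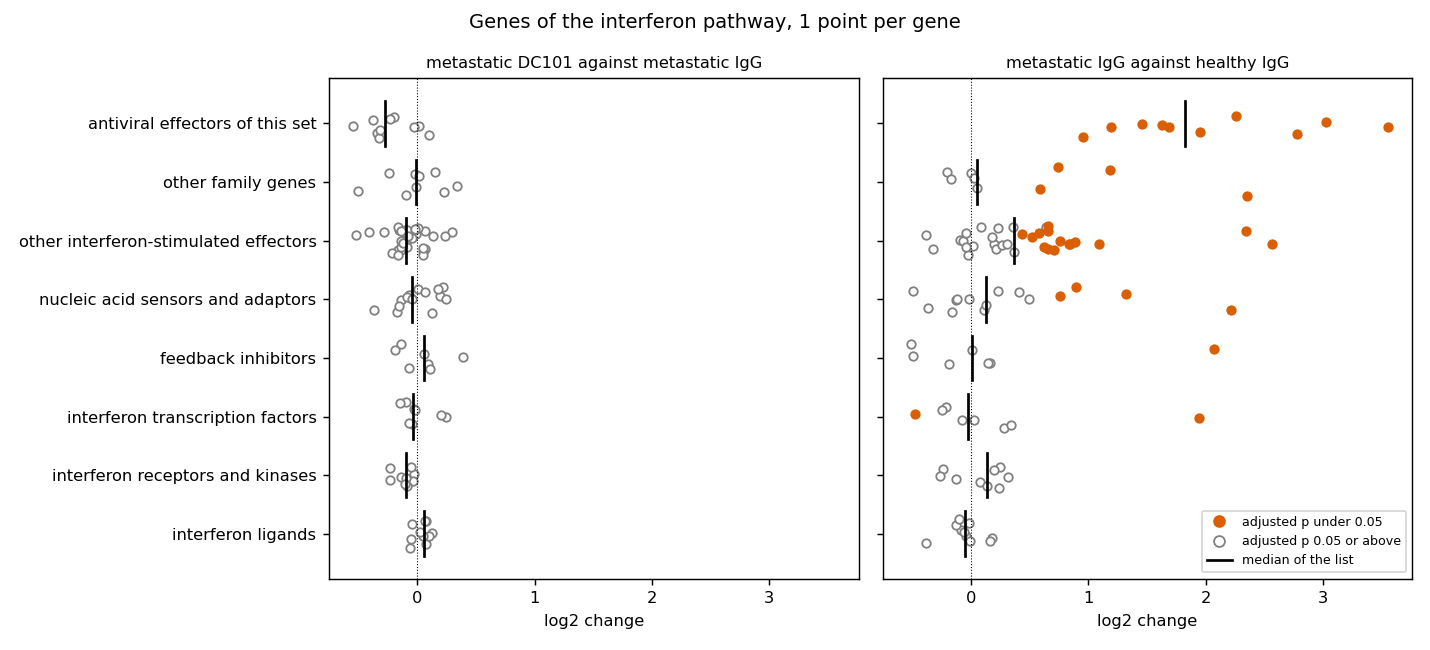
Log2 change (horizontal axis) of the genes of each interferon pathway list, 1 point per gene, for metastatic DC101 against metastatic IgG and for metastatic IgG against healthy IgG. Orange points had an adjusted p under 0.05, and black bars are list medians. In the second panel the 10 antiviral effectors are all orange with a median of 1.82, and the interferon ligands and the receptors and kinases hold no orange point. The first panel holds none in any list.

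The profile of the 10 genes over the 9 arrays was averaged after scaling each gene to a mean of 0 and an SD of 1, and the 10 other genes closest to it were found by root mean square distance. They were, from the nearest, Usp18 (0.06 SD), Sdcbp, AA467197, Ndrg1, Zbp1, Ildr2, Ifi202b, Ifi27l2a, Cd34 and Rnf213 (0.14 SD), against a median of 1.39 SD over the genes outside the 10. Usp18, Zbp1 and Ifi27l2a are also on the pathway lists. Of the 10 effectors themselves, Mx1 (0.07 SD) and Ifit2 (0.09 SD) were nearest to the average profile and Ifit1 (0.26 SD) was furthest. With only 3 groups, a gene that is high in metastatic arrays can be close in this measure, so the distance is a description.

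Markers of other cells in the sort were read beside these changes. Of 16 macrophage and monocyte markers 4 rose in metastatic IgG against healthy IgG, C1qa by 1.54, C1qb by 1.38, Mrc1 by 0.73 and C1qc by 0.70, and none fell. The mean level of the list was 8.33 to 8.81 in metastatic DC101, 8.64 to 8.69 in metastatic IgG and 8.37 to 8.49 in healthy IgG arrays. Adgre1 (0.28), Csf1r (-0.10), Itgam (-0.11) and Ptprc (-0.68), also on this list, were not called. Itgam encodes CD11b and Ptprc encodes CD45, by which the sort excluded cells. The part of the sort in the values of Itgam and Ptprc was not tested. Of 9 neutrophil markers none was called, and of 8 dendritic and lymphoid markers Siglech fell by 0.60. Of 13 epithelial markers 7 were called lower in metastatic IgG lungs and none higher, with changes from -1.70 to 0.79. Of 8 erythrocyte and platelet markers 3 were also called lower. Over all 18193 genes 473 were called lower in this comparison. Of 14 fibroblast and mural markers 3 were higher and 2 lower, of 6 mesothelial markers none was called, and of 15 immediate early and dissociation genes 4 were lower. In metastatic DC101 against healthy IgG lungs, no macrophage, neutrophil, dendritic, lymphoid or epithelial marker was called. Fewer of all genes were called there, 440 against 1188 in metastatic IgG against healthy IgG. The median change of the macrophage and monocyte list was 0.21 there, with a highest value of 1.36, and 0.09 in metastatic IgG against healthy IgG. The lowest adjusted p of that list in limma's test was 0.0618 with DC101. The epithelial medians were -0.38 with DC101 and -0.76 with IgG. With DC101, 3 of 14 fibroblast and mural markers (Col1a1, Col1a2 and Col3a1) and 1 of 6 mesothelial markers (Wt1) were higher than in healthy IgG lungs. In the same comparison 3 erythrocyte and platelet markers and 1 immediate early gene were lower. The difference between the 3-prime and 5-prime probe sets of Gapdh, a sign of RNA quality, was 0.35 to 0.60 in metastatic DC101, 0.47 to 0.57 in metastatic IgG and 0.69 to 0.77 in healthy IgG arrays. Every healthy array thus lay above every metastatic array in this difference for Gapdh. The same difference for Actb was 0.00 to 0.14 in metastatic DC101, 0.01 to 0.09 in metastatic IgG and -0.11 to 0.09 in healthy IgG arrays, so these ranges overlapped. The part of these cells and of RNA quality in the changes of the antiviral genes was not tested.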

How the data were processed

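The authors deposited 1 normalized log2 value per probe set and array for mouse Affymetrix 430 2.0 arrays, made from the raw files by RMA, which corrects background, equalises the arrays and summarises probes. No log base is stated with the deposited values, so base 2, in which RMA works, was assumed. Of 45101 probe sets, 34945 had 1 gene symbol in the platform annotation and gave 18193 genes. Probe sets with several symbols (932), not named (9160) or for controls (64) were left out. Each pair of groups was fitted on its own 6 arrays in R 4.3.3 (limma 3.58.1, functions lmFit and eBayes, two-sided), after the two-group empirical Bayes tests of the study. P-values were adjusted over all genes by the Benjamini-Hochberg method. An exact permutation test of 3 against 3 arrays cannot give a p below 0.1. No dim genes were filtered. The fit was tested on simulated data. The number of arrays limits the precision. The genes, the lists and the tests were chosen with earlier results of these data known. All 10 genes were named, with up to 4 called genes of each pathway list by size of change, up to 3 from a list with none called, and the 10 closest profiles. Other genes with values (Ifit1bl2, the other Oas1 genes, Stat2, Irf9, Socs1 and Socs3, and cell markers) were named after their values were seen. Alternatives changed the fit, the probe sets, the scaling and the arrays.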

Additional observations from a re-analysis of the deposited data

How the results depend on the processing

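In metastatic IgG against healthy IgG lungs, all 10 genes stayed called with each array left out in turn, and all that were tested did so under every other alternative but 1. Oasl1 was not called without moderation of the variances (adjusted p = 0.0692). Leaving out dim genes removed Oas3 and gave a median of 1.95 over the 9 genes left. In metastatic DC101 against healthy IgG lungs, 1 of the 10 genes, Ifit3, was called without moderation of the variances (adjusted p = 0.0488). The cause was not tested. With the replicate block 9 were called, because Oas3 had an adjusted p of 0.0753, and with 1 array left out the number ran from 7 to 10. In metastatic DC101 against metastatic IgG lungs no gene of the 10, and none of all genes, was called under any alternative. The sign of 3 small differences was not stable. With 1 array left out, Oasl2 ran from -0.11 to 0.16, Ifit1 from -0.0286 to 0.181 and Ifit3 from -0.106 to 0.0180, and Ifit3 was 0.0299 with each array centred on its median.

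The labels do not say that replicate numbers pair the arrays. Between groups, the deviations of arrays with the same number had a correlation of -0.05 to 0.08. Arrays with unlike numbers were not compared, so this cannot show whether the arrays were paired. The replicate block lowered the genes called from 1188 to 689 in metastatic IgG against healthy IgG and from 440 to 247 in metastatic DC101 against healthy IgG, and changed no call among the 10 but that of Oas3. Without moderation 376 and 14 genes were called in these comparisons, and with 1 array left out 556 to 759 and 110 to 361. A fit of all 9 arrays together called 662 genes in metastatic DC101 against healthy IgG. The number of arrays, 3 a group, limits the precision, and the 95% intervals of the 10 genes give the differences between the metastatic groups that these arrays leave room for.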
